A study of Mus musculus with 6 samples.

Results

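Complement is the part of innate immunity that runs as a cascade of plasma and tissue proteins. The 37 genes described here are its activating components (22 genes), its receptors and C1q binding protein (5 genes) and its inhibitors (10 genes). They were chosen by name, as the gene probes of the array whose gene name is 1 of these symbols. Of the 37 symbols 36 were found, on 63 of the 56605 gene probes and among 37325 gene names in all. The remaining symbol, C1s, is on no probe by that name, and its mouse copies C1s1 and C1s2 are counted below with the other complement genes. A probe was tested when the scanner software marked it well above background throughout at least 1 group of 3 arrays, which held for 24 of the members, namely 12 components, 4 receptors and 8 inhibitors.

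The tissue was colon bearing colitis-associated tumors, induced in male C57BL/6 mice, bought as young adults, with azoxymethane (AOM, a carcinogen) and dextran sodium sulfate (DSS, which inflames the colon). All 6 mice carried this AOM-DSS model. From 3 of them, treated by mouth with RG@M-γ-CD, and 3 given PBS, total RNA was hybridised to Agilent arrays in one color, each array holding the RNA of 1 mouse. RG@M-γ-CD is a nanomedicine in which the kinase inhibitor regorafenib (RG) sits in mannose-modified γ-cyclodextrin (M-γ-CD), and neither the free drug nor the empty carrier has an array here, so drug and carrier cannot be told apart. Levels are log2 intensities minus the 75th percentile that gene probes reached on the same array, so a level of 0 lies at that percentile.

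In a heat map of the study the 6 arrays stand in another arrangement than the GEO labels give, with RG@M-γ-CD arrays 2 and 3 beside PBS array 1 (called side 1 here) and RG@M-γ-CD array 1 beside PBS arrays 2 and 3 (side 2). The groups below follow the labels, and values for side 1 minus side 2 are given beside them. That heat map shows gene levels on these same arrays. If its arrangement followed those levels, a test between the sides would be circular, so p-values by side are descriptions here. RG@M-γ-CD array 1 correlated less with RG@M-γ-CD array 2 (r = 0.941 across probes, which are not independent replicates) than with PBS arrays 2 and 3 (r = 0.985 and r = 0.987). The other arrays did not follow the sides in this way. PBS array 1 correlated more with PBS arrays 2 and 3 (r = 0.981 and r = 0.983) than with RG@M-γ-CD arrays 2 and 3 (r = 0.972 and r = 0.977). Likewise RG@M-γ-CD array 3 correlated more with PBS arrays 2 and 3 (r = 0.985 and r = 0.984) than with RG@M-γ-CD array 2 (r = 0.977). Between 49.6% and 55.2% of the gene probes, and between 24 and 27 of the members, were well above background on each array. All 8 epithelial markers and the posterior colon gene Hoxb13 were well above background on every array, while of 6 posterior Hox genes all were above background on the arrays of side 1 and only 3 or 4 on those of side 2. In mixed tissue such as this, fewer cells of a type and less RNA per cell cannot be told apart.

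As background, the classical pathway starts when C1q binds antibody or debris, the lectin pathway when mannose-binding lectins or ficolins bind sugars, and the alternative pathway amplifies what has been deposited. All converge on C3, whose cleavage tags targets and releases small peptides that act on myeloid receptors, and end in the membrane attack complex. Inhibitors in plasma and on cell surfaces keep the cascade off host tissue. In the colon, macrophages are known for C1q, stromal and epithelial cells for C3, and the liver supplies most of the plasma proteins.

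Comparing RG@M-γ-CD with PBS, no member passed the adjusted threshold of 0.05 (limma with Benjamini-Hochberg adjustment over 19087 genes). Across all genes 0 (0%) passed it, and 419 (2.2%) lay at an unadjusted p below 0.05. Of the 24 tested members 1, the anaphylatoxin receptor gene C5ar1, lay below that unadjusted p, and 1, the lectin pathway protease gene Masp1, showed no overlap between the groups, beside 4.57% of all genes. The tested members were lower in the RG@M-γ-CD group for 17 and higher for 7, with a median log2 difference of -0.15, where 52.8% of all genes were lower and their median was -0.012. By role the median was -0.12 over the 12 components (9 lower), -0.53 over the 4 receptors (4 lower) and -0.051 over the 8 inhibitors (4 lower). By side these medians were -0.063, -0.38 and -0.35, and that of the inhibitors was 0.11 with the row of the slide as a block and 0.064 without RG@M-γ-CD array 2. The median of the receptors was -0.25 with normexp background correction and -0.20 without PBS array 1. These counts and medians are descriptions, without a test over the members.

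The members varied widely from mouse to mouse. The range over the 6 arrays had a median of 1.26 on the log2 scale for the tested members and of 0.72 for all genes tested. A range of at least 1, a 2-fold span, was reached by 17 of 24 members (70.8%) and by 32.1% of all genes. A wide range was not particular to them, as the median was 1.15 for the other complement genes tested, 1.31 for the interferon induced, 2.47 for the acute phase, 3.16 for the smooth muscle and 4.56 for the neutrophil genes. The span went from 0.25 for Cr1l, the mouse surface regulator also known as Crry, to 3.70 for Cfi. RG@M-γ-CD array 1 held the highest value for 7 members and the lowest for 6, and RG@M-γ-CD array 2 the highest for 6 and the lowest for 8. Over all genes these arrays were also often the extremes, with RG@M-γ-CD array 1 highest for 28.9% and lowest for 18.8% of genes and RG@M-γ-CD array 2 highest for 20.6% and lowest for 36.7%.

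**Figure D1:**
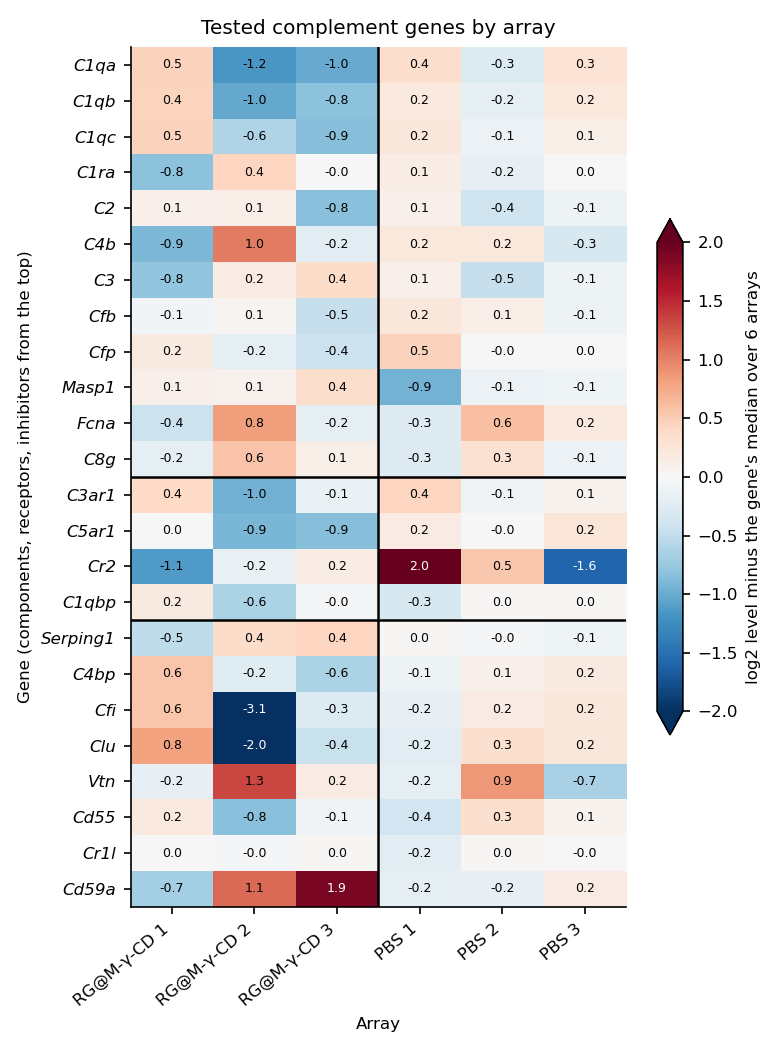
Level of each of the 24 tested complement genes on each array, as log2 minus the gene's own median over the 6 arrays (color and printed value, color scale ending at 2 in both directions), with components, receptors and inhibitors from the top separated by lines and the groups by a vertical line. The 3 C1q genes are low on RG@M-γ-CD arrays 2 and 3 and not on RG@M-γ-CD array 1, and Cfi, Clu, Cr2 and Cd59a have the widest ranges.

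C1q, the recognition molecule of the classical pathway, is built from the products of C1qa, C1qb and C1qc, which lie side by side on chromosome 4. C1qa read 1.37, -0.25 and -0.10 on RG@M-γ-CD arrays 1, 2 and 3 and 1.27, 0.63 and 1.19 on PBS arrays 1, 2 and 3. C1qb read 0.84, -0.62 and -0.42 against 0.60, 0.21 and 0.61, in the same order. C1qc read 2.62, 1.55 and 1.3 against 2.38, 2.04 and 2.27. For all 3 genes RG@M-γ-CD array 1 was the highest of the 6 arrays, RG@M-γ-CD arrays 2 and 3 were the lowest, and the groups overlapped.

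The log2 difference between the groups was -0.69 for C1qa (SE 0.46, unadjusted p = 0.18), -0.54 for C1qb (SE 0.40, unadjusted p = 0.222) and -0.41 for C1qc (SE 0.35, unadjusted p = 0.291), each with an adjusted p of 1 in limma. Without RG@M-γ-CD array 1 the differences became -1.21, -0.99 and -0.81, the groups no longer overlapped, and the adjusted p was 0.1, 0.105 and 0.146. They shrank to -0.39, -0.26 and -0.27 without RG@M-γ-CD array 2 and to -0.47, -0.36 and -0.15 without RG@M-γ-CD array 3. In the fit without RG@M-γ-CD array 1, 206 genes (1.06%) and no member passed the adjusted threshold. There 13 of 24 members did not overlap between the groups, beside 25.9% of all genes. For side 1 minus side 2 the differences were -0.76, -0.70 and -0.57, with unadjusted p from 0.0888 to 0.126.

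The probes for C1qa and C1qb are printed here because their levels moved together over the arrays. They lie on mm9, minus strand, at chr4:136452409-136452468 for C1qa and chr4:136436578-136436637 for C1qb, and the longest run of letters they share, in capitals, is 5 bases.
C1qa probe: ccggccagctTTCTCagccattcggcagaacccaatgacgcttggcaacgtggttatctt
C1qb probe: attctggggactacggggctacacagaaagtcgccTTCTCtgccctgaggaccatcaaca
The 250 bases before the start of C1qb and C1qc follow, from RefSeq on GRCm38.p6, minus strand, chr4:136886201-136886450 and chr4:136892915-136893164, to show what the promoters of genes that move together hold. C1qa is not among the promoters at hand.
C1qb promoter: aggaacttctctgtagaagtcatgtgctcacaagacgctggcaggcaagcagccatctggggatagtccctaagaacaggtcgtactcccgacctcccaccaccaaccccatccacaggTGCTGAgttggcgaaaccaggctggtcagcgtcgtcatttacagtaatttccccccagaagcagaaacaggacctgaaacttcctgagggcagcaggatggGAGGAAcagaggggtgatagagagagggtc
C1qc promoter: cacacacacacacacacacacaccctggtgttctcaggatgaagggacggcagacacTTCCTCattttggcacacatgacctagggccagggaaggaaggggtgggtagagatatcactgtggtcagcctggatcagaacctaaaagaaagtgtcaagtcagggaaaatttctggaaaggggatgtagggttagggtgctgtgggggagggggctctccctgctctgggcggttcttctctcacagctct
Capitals mark, on either strand, the core GAGGAA bound by the myeloid factor PU.1 (once in each) and the core TGCTGA of the MAF recognition element (once, in C1qb), which do not overlap. Among 32851 promoter windows of the same length 23.3% hold GAGGAA and 16.1% TGCTGA, and of the 28 members with a window 5 hold GAGGAA and 11 TGCTGA. A match in these letters is a description and not a binding site.

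The tested macrophage markers other than Mertk were lowest on the same arrays as C1q. The summed level of the macrophage list was 7.40 on RG@M-γ-CD array 1, 6.06 and 6.32 on RG@M-γ-CD arrays 2 and 3, and 7.18 to 7.39 on the PBS arrays. Lyz2 dominated this sum and read 7.06, 5.45 and 5.85 in the RG@M-γ-CD group and 6.76, 7.09 and 6.97 in the PBS group. Of the 11 genes of the list 10 were tested, 9 of these were lower in the RG@M-γ-CD group and 1, Mertk, was higher. Mertk was highest on RG@M-γ-CD array 2, at 0.076. On every array 10 or 11 genes of the list were well above background. Csf1r, the receptor that macrophages need to live, read 3.25, 2.08 and 2.17 in the RG@M-γ-CD group and 3.31, 2.99 and 3.14 in the PBS group. The part of the macrophage markers in the C1q levels was not tested.

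**Figure D2:**
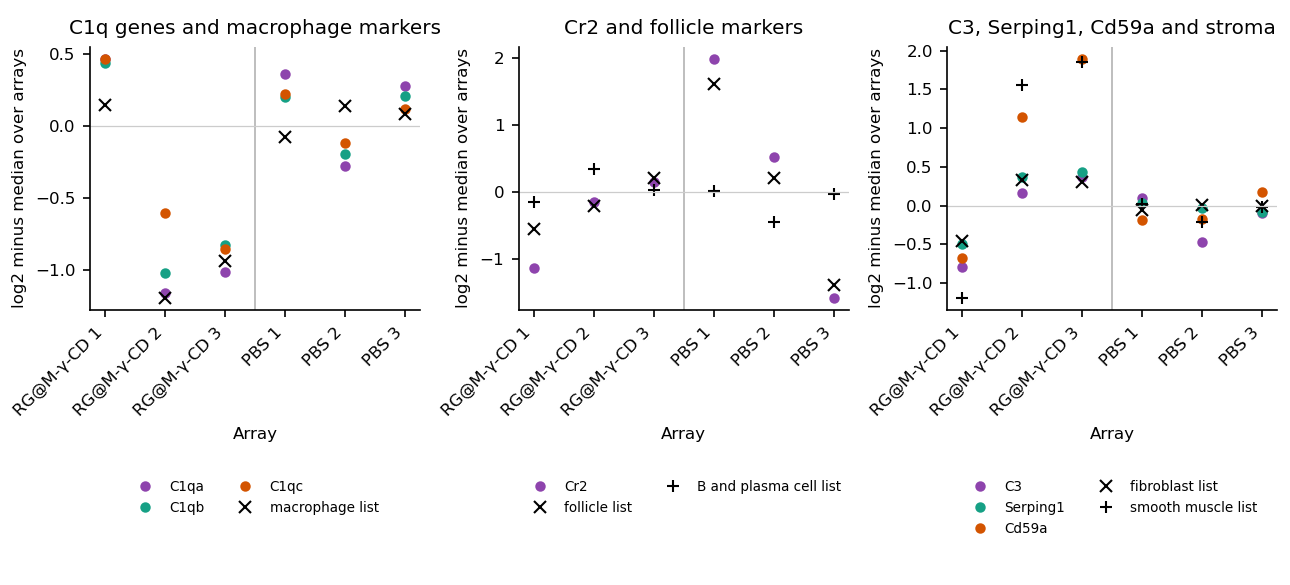
Levels of members (colored points) and summed levels of marker lists (black crosses and plus signs) on each array, as log2 minus the median over the 6 arrays. C1q and the macrophage list are both low on RG@M-γ-CD arrays 2 and 3, Cr2 and the follicle list both peak on PBS array 1 and are lowest on PBS array 3, and Cd59a and the smooth muscle list are both high on RG@M-γ-CD arrays 2 and 3.

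The proteases and substrates downstream of C1q did not share its pattern. C1ra, the gene of the protease C1r, was lowest on RG@M-γ-CD array 1 at 0.81 and lay between 1.46 and 2.06 on the other arrays. Its log2 difference was -0.13 between the groups and 0.52 for side 1 minus side 2 (unadjusted p = 0.0785 in limma). C2, whose product is cut to form the C3 convertase, was lowest on RG@M-γ-CD array 3 at 0.72 and lay between 1.15 and 1.68 on the others, a difference of -0.063.

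C4b encodes C4, the other part of that convertase, and has the near-identical neighbour C4a, so its signal cannot be given to 1 gene with certainty. It read 2.76, 4.69 and 3.44 in the RG@M-γ-CD group and 3.87, 3.87 and 3.33 in the PBS group. The highest and the lowest value both belonged to RG@M-γ-CD arrays, RG@M-γ-CD array 2 and RG@M-γ-CD array 1. The group difference was -0.059 (SE 0.48), and side 1 minus side 2 was 0.68.

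C3, the protein on which all pathways converge, read 3.95, 4.91 and 5.11 in the RG@M-γ-CD group and 4.85, 4.28 and 4.65 in the PBS group. RG@M-γ-CD array 1 was the lowest and RG@M-γ-CD array 3 the highest, so that the PBS values fell within the RG@M-γ-CD range. The difference was 0.066 (SE 0.34, unadjusted p = 0.851 in limma), 0.42 without RG@M-γ-CD array 1. Its second probe gave 0.13. By side C3 did not overlap, with a mean of 4.96 ± 0.14 (SD, n = 3) on side 1 and 4.29 ± 0.35 (SD, n = 3) on side 2 and a difference of 0.66 (SE 0.21, unadjusted p = 0.016, adjusted p = 0.297 in limma). In the arrangement by side 5 genes (0.0259%) passed the adjusted threshold, no member among them, 16.5% of genes had an unadjusted p below 0.05, and the median of all genes was -0.12.

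The fibroblast list, with Dcn, Col1a2 and Col3a1 as its brightest genes, had its lowest summed level on RG@M-γ-CD array 1, where C3 was lowest. This level was 6.46 there, 7.25 and 7.22 on RG@M-γ-CD arrays 2 and 3 and 6.86 to 6.92 on the PBS arrays. Within the list Col3a1 was lowest on PBS array 1 and Pdgfra on RG@M-γ-CD array 2, and the other genes on RG@M-γ-CD array 1. Complement genes C2, C3, C4b, Cfb and Serping1 are known to be induced by interferon. The 16 interferon induced genes were lower in the RG@M-γ-CD group for 16 of 16 (median -0.48; by side 12 were higher, median 0.28), with 2 below an unadjusted p of 0.05 and 0 past the adjusted threshold. Of the acute phase list, which covers liver and epithelial proteins of inflammation such as Saa2, 8 of 9 tested genes were lower (median -1.16). Of these 9 genes 3 lay below that unadjusted p and 0 passed the adjusted threshold. By side 9 of 9 were lower (median -0.93), with 3 below that unadjusted p. Across all genes 52.8% were lower and 2.2% lay below that p by group, and 63.8% and 16.5% by side. The part of any of these lists in the levels of the members was not tested.

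In the alternative pathway, Cfb (factor B, the protease of the alternative convertase) differed by -0.24 between the groups and its range was 0.70. Cfp (properdin, which stabilizes that convertase) differed by -0.30 with a range of 0.89. Both were highest on PBS array 1 and lowest on RG@M-γ-CD array 3, and the groups overlapped.

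Cfd, factor D, the protease that activates factor B and is known as the adipocyte protein adipsin, was well above background on a single array. Its brighter probe read -6.93, 0.87 and -6.01 on the RG@M-γ-CD arrays and -6.80, -6.30 and -4.69 on the PBS arrays. Its other probe read 0.19 on RG@M-γ-CD array 2 and was not well above background elsewhere. RG@M-γ-CD array 2 thus stood alone, at least 37.9-fold above the mean of the other 5 arrays by the brighter probe and at least 23.6-fold by the other. For this bound each dim value was raised to the lowest level well above background on its array. Between the groups the bound is only at least 1.24-fold for the brighter probe, since 2 of the 3 RG@M-γ-CD arrays were dim, and the other probe gives none.

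Both Cfd probes are printed because the pair does not count as 2 independent readings. They lie on mm9, plus strand, at chr10:79355274-79355333 and chr10:79355302-79355361 (the brighter), and share the 32 bases in capitals.
Cfd other probe: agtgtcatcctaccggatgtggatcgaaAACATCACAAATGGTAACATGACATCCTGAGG
Cfd brighter probe: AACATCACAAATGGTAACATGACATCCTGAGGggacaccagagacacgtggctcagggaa
Of the 5 adipocyte markers, 2 were detected on this array alone. Adipoq and Retn were well above background on RG@M-γ-CD array 2 alone, at -3.83 and -2.78, Plin1 was so on no array, and Cidec and Lep were so on all 6. The summed level of the 5 adipocyte genes ran from -0.21 to 0.26 in the RG@M-γ-CD group and from -1.34 to -0.43 in the PBS group. Cidec was the brightest of the 5 on every array and read -0.43, -0.37 and -0.63 against -2.37, -0.84 and -1.08. It dominated this sum except on PBS array 1, where Lep was close to it. Lep differed by -0.072 between the groups. The part of the adipocyte genes in the Cfd signal was not tested.

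**Figure D3:**
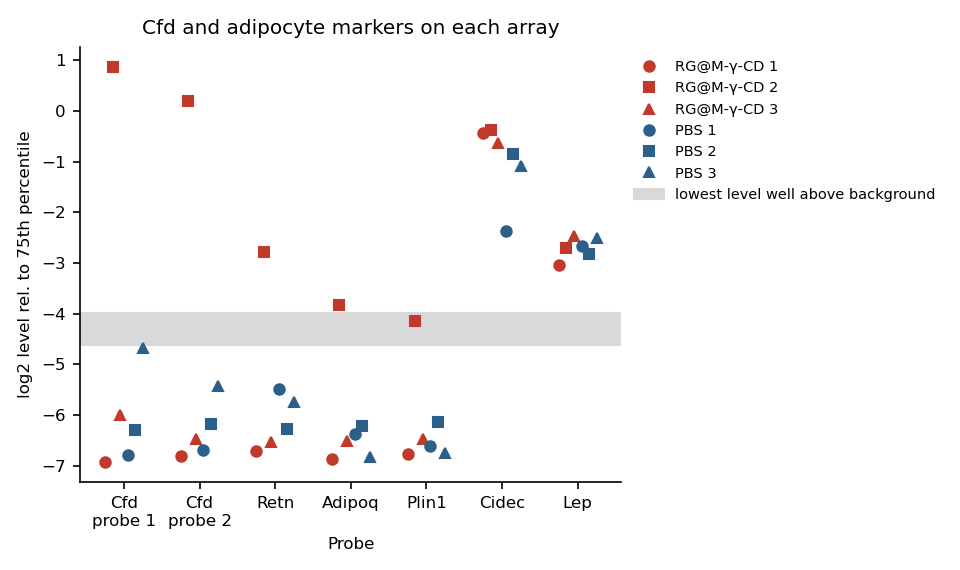
Level of both Cfd probes and of 5 adipocyte markers on each array, as log2 relative to the 75th percentile, with the gray band spanning the lowest level well above background on the 6 arrays. The square for RG@M-γ-CD array 2 stands above all other arrays for Cfd (0.87 and 0.19), Retn (-2.78), Adipoq (-3.83) and, within the band, Plin1 (-4.15), while the arrays lie closer together for Lep and, except for PBS array 1, for Cidec.

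The lectin pathway was thinly expressed. Of its members, the soluble lectins Mbl1 and Mbl2 and the protease gene Masp2 were not well above background on any array, which leaves Masp1 and Fcna (ficolin A). Masp1 read -1.78, -1.80 and -1.53 in the RG@M-γ-CD group and -2.82, -2.0 and -1.96 in the PBS group. Each RG@M-γ-CD array lay above each PBS array, and PBS array 1 was the farthest below. The difference was 0.56 (SE 0.27, 1.47-fold, unadjusted p = 0.0784, adjusted p = 1 in limma), 1.12 with the row of the slide as a block (unadjusted p = 0.00333, adjusted p = 0.997), 0.28 without PBS array 1 and 0.29 with normexp, and it came from 1 of 5 probes, the other 4 being not well above background on any array. Side 1 minus side 2 was -0.14. Fcna, which in mice is known from macrophages of spleen and liver, was highest on RG@M-γ-CD array 2 at -1.43 and lowest on RG@M-γ-CD array 1 at -2.70, a group difference of -0.11.

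Of the terminal components, which assemble the membrane attack complex, C8g alone was tested, with a difference of 0.19 and a range of 0.83. C8a, C8b and C9 were not well above background on any array. C7 was so on RG@M-γ-CD arrays 1 and 2 and PBS arrays 1 and 3, at a level between -4.21 and -3.74 on all 6. C6 was so on RG@M-γ-CD array 1 and PBS arrays 1 and 3, at -4.35, -4.47 and -4.31, and read -6.48 and -6.57 on RG@M-γ-CD arrays 2 and 3 and -4.59 on PBS array 2.

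Among the receptors, C5ar1, which senses the peptide C5a on neutrophils and macrophages, read -2.35, -3.28 and -3.22 in the RG@M-γ-CD group and -2.20, -2.38 and -2.13 in the PBS group. RG@M-γ-CD arrays 2 and 3 lay below every PBS array, and RG@M-γ-CD array 1 fell within the PBS range. The mean was -2.95 ± 0.52 (SD, n = 3) against -2.24 ± 0.13 (SD, n = 3), a difference of -0.71 (SE 0.28, 0.609 times the PBS level, unadjusted p = 0.039, adjusted p = 1 in limma). An unadjusted p below 0.05 in this direction was reached by 1.33% of all genes. With the row of the slide as a block C5ar1 differed by -0.75 with an unadjusted p of 0.136, and with normexp by -0.34 with one of 0.0566. Without RG@M-γ-CD array 1 it differed by -1.01 (unadjusted p = 0.00115, adjusted p = 0.0668), where 12.5% of all genes lay below the unadjusted threshold, and in the fits that left out another array its unadjusted p ran from 0.0639 to 0.124 with an adjusted p of 1.

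C3ar1, the receptor for the peptide C3a, read -2.92, -4.27 and -3.45 in the RG@M-γ-CD group and -2.89, -3.39 and -3.24 in the PBS group, and was above background on 2 of 3 and 3 of 3 arrays. RG@M-γ-CD array 2 was the lowest, RG@M-γ-CD array 1 was next to the top, and the difference was -0.37 (SE 0.36). It was -0.0054 without RG@M-γ-CD array 2, -0.68 without RG@M-γ-CD array 1, -0.23 without PBS array 1, -0.16 with normexp and -0.65 with the row of the slide as a block. The neutrophil list had a summed level of 5.55 to 6.65 in the RG@M-γ-CD group and 5.89 to 6.70 in the PBS group. The sum was lowest on RG@M-γ-CD array 3, but each gene of the list except Csf3r was lowest on RG@M-γ-CD array 2, as C5ar1 and C3ar1 were. S100a9, among the brightest genes of the list, read 5.73, 0.95 and 2.02 against 4.83, 4.07 and 5.06. Of its 7 genes, all tested, 6 were lower in the RG@M-γ-CD group (median -1.24) and 6 on side 1 (median -1.84), with 0 and 2 below an unadjusted p of 0.05, while Csf3r had its highest level on RG@M-γ-CD array 2, at 6.25. Its part in the receptor levels was not tested.

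Cr2, the receptor CD21 of B cells and follicular dendritic cells, had the second widest range of the members, 3.58, wider than that of 98.9% of all genes. It read -1.37, -0.39 and -0.088 in the RG@M-γ-CD group and 1.75, 0.29 and -1.82 in the PBS group. The highest and the lowest array were both PBS, PBS array 1 and PBS array 3. The difference was -0.69 (SE 0.88, unadjusted p = 0.461 in limma), it was 0.15 without PBS array 1, -0.31 without RG@M-γ-CD array 1, -1.64 without PBS array 3 and -2.37 with the row of the slide as a block (unadjusted p = 0.0479, adjusted p = 0.997), and side 1 minus side 2 was 1.39 (SE 0.74, unadjusted p = 0.105). Its 3 probes gave group differences from -0.69 to -0.45.

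The follicle markers stood with Cr2. The summed level of the follicle list (Cxcl13, Cxcr5 and Fcer2a) was 1.86 on PBS array 1, 0.45 on PBS array 2 and -1.15 on PBS array 3, and -0.30, 0.033 and 0.46 on the RG@M-γ-CD arrays. Its lowest and highest arrays were those of Cr2. Ms4a1, which encodes CD20 on B cells, read 1.91, 0.85 and -2.16 on the PBS arrays and -0.77, -0.43 and 0.38 on the RG@M-γ-CD arrays, the same order as Cr2. The list of B and plasma cells, which Jchain dominates, had a summed level of 5.11 to 5.60 in the RG@M-γ-CD group and 4.81 to 5.28 in the PBS group. The part of follicles or B cells in the Cr2 signal was not tested.

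C1qbp, which binds the globular heads of C1q and is known mainly as a mitochondrial protein, had a narrow range of 0.81 and a group difference of -0.063. By side it did not overlap, with a difference of -0.40 (unadjusted p = 0.071 in limma). Vsig4, the complement receptor of resident macrophages, reached that mark on no array.

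Among the soluble inhibitors, Cfi (factor I, the protease that cuts C3b and C4b) had the widest range of all members, 3.70. It read 4.15, 0.45 and 3.33 in the RG@M-γ-CD group and 3.43, 3.76 and 3.82 in the PBS group. A single array, RG@M-γ-CD array 2, was far below the rest, and RG@M-γ-CD array 1 was the highest. The difference was -1.03 (SE 0.90, unadjusted p = 0.293 in limma) and 0.069 without RG@M-γ-CD array 2.

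Clu (clusterin, which blocks assembly of the membrane attack complex and is abundant in injured epithelium) read 7.55, 4.74 and 6.30 in the RG@M-γ-CD group and 6.51, 7.07 and 6.98 in the PBS group. RG@M-γ-CD arrays 1 and 2 were again the ends of the range. The group difference was -0.66 (SE 0.67, unadjusted p = 0.361 in limma) and 0.072 without RG@M-γ-CD array 2. By side Clu did not overlap, with means of 5.85 ± 0.97 (SD, n = 3) and 7.2 ± 0.31 (SD, n = 3) and a difference of -1.35 (SE 0.48, unadjusted p = 0.0271, adjusted p = 0.297 in limma).

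Cfi and Clu are also made in liver, as are the genes of the hepatocyte list, and the summed level of that list was lowest on RG@M-γ-CD array 2. It was -0.41 there and 1.38 to 3.36 on the other arrays, with Fga, Fgb and Fgg not above background on any. Alb dominated this sum and read -0.73 on RG@M-γ-CD array 2. The other tested gene, the dim Ahsg, read -3.82 there and was lowest on PBS array 1, at -4.95. The list of squamous epithelium had a summed level of 2.78 on RG@M-γ-CD array 2 and 3.71 to 4.42 on the others. Krt14 dominated this sum, at 2.42 on RG@M-γ-CD array 2 and 3.52 to 4.28 on the others. Of the other tested genes Krt13 was also lowest on RG@M-γ-CD array 2, and Krt10 was lowest on PBS array 1. The dim and untested Krt5, Krt4 and Krt1 were not lowest on RG@M-γ-CD array 2, where Krt5 was higher than on every PBS array. The part of either list in the Cfi and Clu levels was not tested.

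Serping1, the gene of the C1 inhibitor, read 2.25, 3.13 and 3.18 in the RG@M-γ-CD group and 2.78, 2.73 and 2.66 in the PBS group. The PBS arrays lay close together and the RG@M-γ-CD arrays on both sides of them, a difference of 0.13 (SE 0.27). By side it did not overlap, 0.48 higher on side 1 (SE 0.19, unadjusted p = 0.0427, adjusted p = 0.298 in limma). C4bp, the C4b binding protein, read 2.66, 1.86 and 1.46 against 2.0, 2.20 and 2.29. Here too the PBS arrays lay within the RG@M-γ-CD range, with a difference of -0.17 (SE 0.31) and of -0.61 by side (SE 0.20, unadjusted p = 0.0226, adjusted p = 0.297 in limma).

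Vtn (vitronectin, which binds late complexes) read -3.58, -2.07 and -3.25 in the RG@M-γ-CD group and -3.61, -2.55 and -4.06 in the PBS group. RG@M-γ-CD array 2 and PBS array 2 were the high ones, the groups overlapped, and the difference was 0.44 (SE 0.52).

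The membrane inhibitors split into 1 steady gene and 2 variable ones. Cr1l, the rodent regulator of C3 convertases, kept within 0.25 over the 6 arrays, a range smaller than that of all but 4.1% of genes, with a group difference of 0.068 (SE 0.15). Cd55 (decay accelerating factor) read 2.87, 1.84 and 2.60 in the RG@M-γ-CD group and 2.29, 2.99 and 2.75 in the PBS group. Its lowest value was RG@M-γ-CD array 2 and its highest PBS array 2, and the groups overlapped. The difference was -0.24 (SE 0.32) by group and -0.63 by side (SE 0.22, unadjusted p = 0.0251, adjusted p = 0.297 in limma), and its 4 probes ran from -0.24 to -0.14 by group. Cd55b, a near-identical copy on the same chromosome, gave -0.26 and -0.62.

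Cd59a, which encodes the CD59 that stops the membrane attack complex from closing, read -0.96, 0.85 and 1.61 in the RG@M-γ-CD group and -0.47, -0.46 and -0.12 in the PBS group. RG@M-γ-CD arrays 2 and 3 were above, and RG@M-γ-CD array 1 below, every PBS array. The difference was 0.85 (SE 0.62, 1.80-fold, unadjusted p = 0.218, adjusted p = 1 in limma), 1.58 without RG@M-γ-CD array 1 (SE 0.28, unadjusted p = 0.00134, adjusted p = 0.0705), 0.29 without RG@M-γ-CD array 3 and 1.17 by side (SE 0.53, unadjusted p = 0.0643, adjusted p = 0.31). Its second probe gave 0.78. The smooth muscle list (Tagln, Cnn1 and Actg2 the brightest) had its highest and lowest arrays in common with Cd59a, with a summed level of 6.20, 8.95 and 9.25 on RG@M-γ-CD arrays 1, 2 and 3 and 7.18 to 7.41 on the PBS arrays, and its part in the Cd59a level was not tested.

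The remaining inhibitors were at the edge of detection. Cd59b, the copy of Cd59a known from testis, was well above background on RG@M-γ-CD array 3 alone, at -3.66, at least 1.62-fold over the other arrays. Cd46, which in mice is known from sperm, was so with 1 probe on RG@M-γ-CD array 2 (-1.93, at least 5.42-fold over the other arrays) and with another on PBS array 1 (-4.18), and its remaining probe was so on none.

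**Figure D4:**
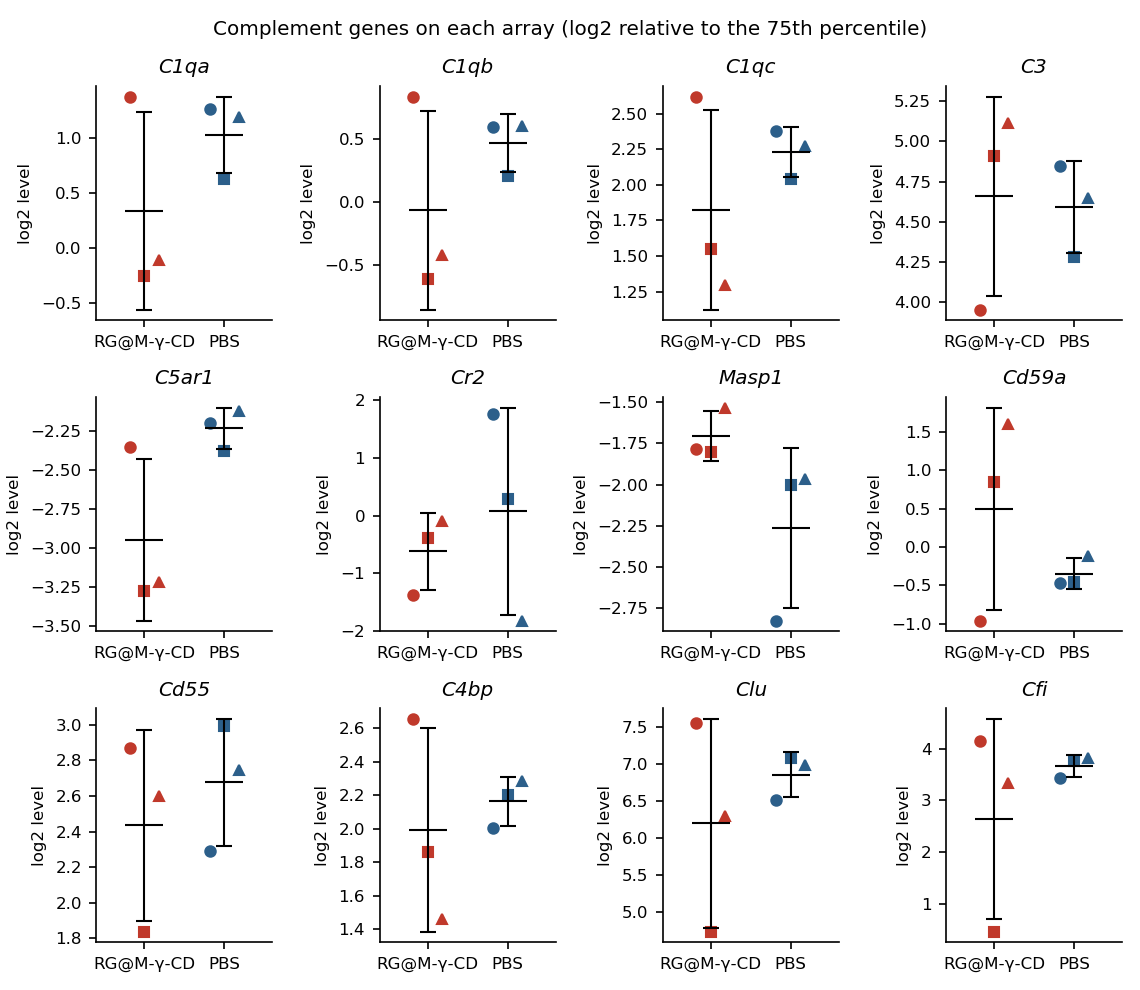
Level of 12 complement genes on each array (log2 relative to the 75th percentile, each panel with its own scale), with circles, squares and triangles for replicates 1, 2 and 3 and with the mean and SD of each group (n = 3). The RG@M-γ-CD points spread widely around the PBS points for most genes, and Masp1 is the only tested member without overlap.

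Arranged by side, 7 of 24 members did not overlap, beside 25.5% of all genes. C3 and Serping1 were higher on side 1, where 7.06% of all genes were higher without overlap, and Clu, Cd55, C4bp, Cfi and C1qbp were lower, as 18.4% of all genes were. Of these C3, Serping1, C4bp, Clu and Cd55 lay below an unadjusted p of 0.05, which makes 5 of 24, beside the 16.5% of all genes given above. Without RG@M-γ-CD array 1 this count was 1, beside 7.49% of all genes. In this arrangement 15 of 24 members were lower on side 1, beside 63.8% of all genes. The differences turned sign against those of the groups for C1ra, C4b, Masp1, Fcna, Cr2 and Cr1l. Both arrangements use the same 6 arrays, so their values are not independent of each other.

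**Figure D5:**
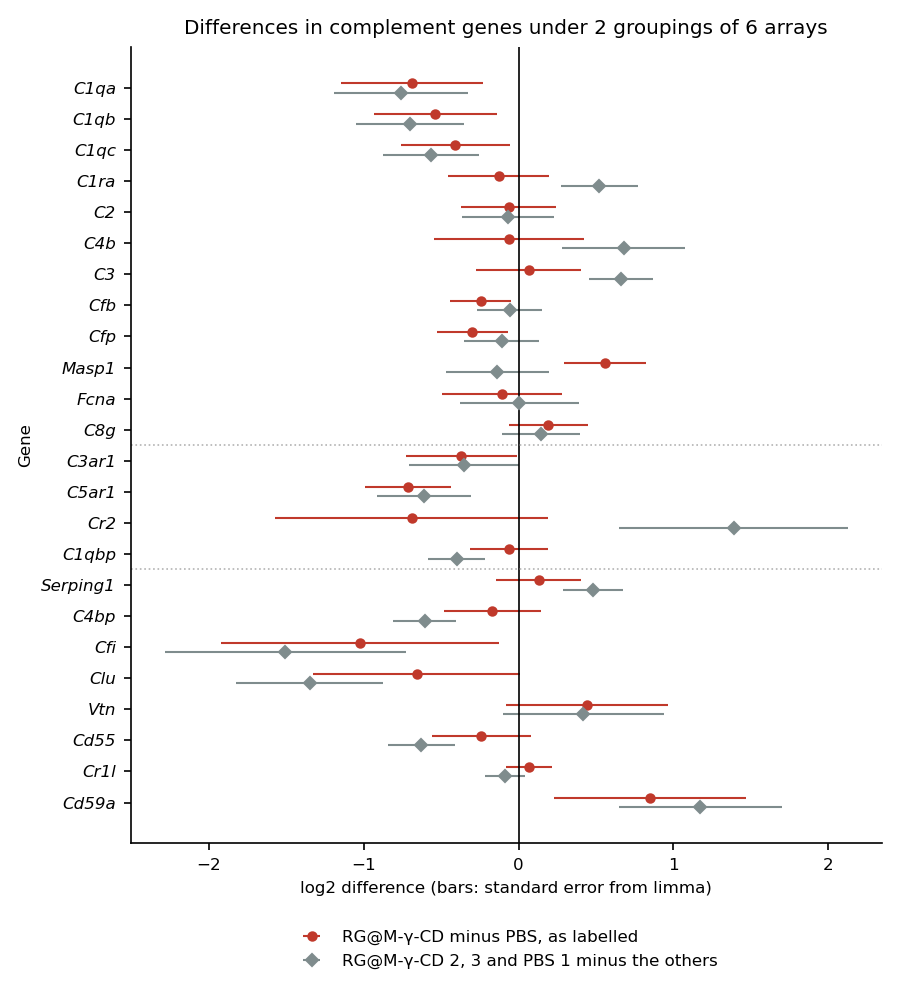
Log2 difference of each of the 24 tested members with its standard error from limma, for RG@M-γ-CD minus PBS as labelled (circles) and for RG@M-γ-CD arrays 2 and 3 with PBS array 1 minus the other arrays (diamonds), with components, receptors and inhibitors separated by dotted lines. C5ar1 and Masp1 lie farthest from 0 for their error as labelled, and C3, Serping1, C4bp, Clu and Cd55 do so by side.

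Of 24 other complement genes, 17 were tested, 7 of them higher and 10 lower in the RG@M-γ-CD group (median -0.13), with 0 below an unadjusted p of 0.05 and 0 past the adjusted threshold in limma. By side C1rl, a relative of C1r, was 0.69 higher on side 1 (SE 0.19, unadjusted p = 0.00916, adjusted p = 0.297) and Cd55b 0.62 lower (unadjusted p = 0.023, adjusted p = 0.297). C1s1 and C1s2, which stand in for C1s, differed by -0.055 and 0.0052 between the groups and by 0.45 and 0.44 between the sides. Csmd1, Cpn2, Crp and Ptx3 were not well above background on any array.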

How the data were processed

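Each one-color array was read with Agilent Feature Extraction 10.7.1.1 per the labels, and the spot intensities deposited by the authors are corrected for background and detrended but not normalized between arrays. The log2 values of the table deposited by the authors share 1 distribution over its 6 columns, as quantile normalization gives, and were used as an alternative. Here outlier spots (790 over 6 arrays) were left out, spots of a probe averaged and the 75th percentile of the gene probes subtracted. A probe was tested when at least 0.5 of its spots were well above background on all 3 arrays of a group, the brightest such probe stood for its gene, and limma 3.58.1 (R 4.3.3) was fitted to 19087 genes with Benjamini-Hochberg adjustment, without covariates. The fit was tested on simulated data. Precision is limited by 3 arrays a group, which the study describes as separate mice.

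The members and gene lists were chosen with earlier results of these data known. Values by array are given for members without overlap between the groups, below an unadjusted p of 0.05, differing by at least 1 on the log2 scale in either arrangement or with the 5 widest ranges. Those of the other members were added after their values were seen. So were those of the marker genes Csf1r, S100a9, Csf3r, Ms4a1, Adipoq, Retn, Plin1, Cidec, Alb, Ahsg, Krt14, Lyz2 and Mertk. A summed level is the log2 of the summed linear levels of all genes of a list that had a probe, whether or not they were tested. Probe positions are those of the scanner files (mm9), and exon annotation was not used here. Other settings tried, 1 at a time, were quantile normalization, normexp (offset 50), the table of the authors, a looser and a stricter filter on dim probes, averaging over probes, keeping outlier spots, blocks for the replicate number or slide row, the methods' t-test, the arrangement by side and leaving out each array.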

Additional observations from a re-analysis of the deposited data

How the results depend on the processing

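No member passed the adjusted threshold in any fit. The number of members at an unadjusted p below 0.05 was 1 as reported (2.2% of all genes), 0 with quantile normalization (2.3%), normexp (1.69%), the table of the authors (2.3%) and the methods' t-test (2%), 3 without a filter on dim probes (2.09%), 2 with the slide row as a block (2.93%), 5 in the arrangement by side (16.5%), and 0 to 7 when 1 array was left out (1.25% to 12.5%). Genes past the adjusted threshold numbered 0 as reported, 5 by side and 0 to 206 when 1 array was left out, the 206 without RG@M-γ-CD array 1. At the thresholds of the methods the methods' t-test called 45 genes (12 higher, 33 lower), no member among them, and after Benjamini-Hochberg 0. With the slide row as a block the difference turned to -0.19 for C3, 0.33 for Fcna, 0.17 for C1qbp and 0.15 for Cd55. By side it turned to 0.52 for C1ra, 0.68 for C4b, -0.14 for Masp1, 0.0053 for Fcna, 1.39 for Cr2 and -0.090 for Cr1l. When 1 array was left out the differences ran from -0.23 to 0.17 for C1qbp, -0.41 to 0.22 for C1ra, -0.23 to 0.25 for C2, -0.16 to 0.42 for C3, -0.59 to 0.37 for C4b, -0.50 to 0.097 for C4bp, -0.011 to 0.37 for C8g, -0.46 to 0.059 for Cd55, -1.78 to 0.069 for Cfi, -1.34 to 0.072 for Clu, -0.0094 to 0.12 for Cr1l, -1.64 to 0.15 for Cr2, -0.49 to 0.14 for Fcna, -0.035 to 0.43 for Serping1 and -0.0048 to 0.87 for Vtn. The other 9 members kept their direction in these fits. The cause of these turns was not tested.

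By side and without 1 array, a choice made after seeing the data, genes past the adjusted threshold numbered 1 without RG@M-γ-CD array 1, 0 without RG@M-γ-CD array 2, 506 without RG@M-γ-CD array 3, 93 without PBS array 1, 4 without PBS array 2 and 3 without PBS array 3, and members at an unadjusted p below 0.05 numbered 1 without RG@M-γ-CD array 1 (7.49% of all genes), 4 without RG@M-γ-CD array 2 (7.11%), 3 without RG@M-γ-CD array 3 (27.2%), 11 without PBS array 1 (17.9%), 4 without PBS array 2 (10.2%) and 5 without PBS array 3 (10.3%). The median of the members became 0.084 without RG@M-γ-CD array 3.

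The replicate numbers do not pair the arrays, since the deviations of same-numbered arrays correlated at -0.25, -0.23 and 0.14. With the number as a replicate block 1 member lay at an unadjusted p below 0.05 and 0 genes passed the adjusted threshold. Near-identical copies (C4b and C4a, C1ra and C1rb, Cd59a and Cd59b, Cd55 and Cd55b) may share signal. The slide row is partly confounded with the groups, since row 1 holds all RG@M-γ-CD arrays and PBS array 1 and row 2 the other PBS arrays.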
